A study of Drosophila melanogaster with 6 samples.

Results

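The HP2 regions described here lie on the left arm of chromosome 3 (3L) of Drosophila melanogaster, outside its 2 Mb at the centromere side. They were chosen by position alone: the midpoint of a region had to lie at or below 22543557 of the 3L sequence (release 5 coordinates). The list of the whole replicate set, called the combined list below, held 441 such regions out of 5179, and 604 of the 5179 were on 3L. The lists of replicates 1, 2 and 3 held 87 of 2488, 180 of 3132 and 211 of 3190 regions. The midpoints of 1 combined region and of 3, 1 and 4 regions of the replicate lists fell in the first 100 kb at the telomere side, which is described apart.

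All libraries came from wild-type embryos of the strain Oregon-R-modENCODE aged 14 to 16 h, crosslinked in 1.8% formaldehyde. The 3 HP2 libraries were made by chromatin immunoprecipitation and sequencing (ChIP-seq) with the antibody Ab2-90, and the 3 input libraries are chromatin of the same stage without the antibody step. Per the labels, each input library was the input for the list of its own replicate; how it entered the calls is not given in the sources used here, and the inputs have no values of their own in what follows. Whole embryos were used, so a region averages over all cell types at this stage, and the labels do not say whether replicates came from separate embryo collections. Replicate 1 stands apart from the other replicates, with the fewest regions on distal 3L. No read totals came with the lists, so how deeply each library was sequenced is unknown.

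HP2 is encoded by Su(var)2-HP2, a gene whose mutations suppress position-effect variegation, the silencing of genes placed next to heterochromatin. The protein binds HP1a, which reads methylated lysine 9 of histone H3 and is the core protein of fly heterochromatin around centromeres, on chromosome 4 and at telomeres. Fly telomeres have no telomerase repeats: they are arrays of the retrotransposons HeT-A, TAHRE and TART, followed by subtelomeric repeats, and HP1a takes part in capping and silencing them. HP1a is also known at scattered sites of the gene-rich arms. The question put to these lists is how HP2 is placed on such an arm and at its telomere side. The genes available for matching are placed on release 6 and no release 5 sequence was used, so sites are given by coordinates, without genes or DNA sequence.

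At the telomere side of 3L, HP2 occupied a single domain of about 24 kb, and the rest of the first 100 kb held no region in any list. The combined list had 1 region there, on 3L from 51020 to 75158, over 24139 bp and with a score of 0.96. The score is a value per region given by the authors, read here as log2 with an unknown constant in each list, so it is compared only within a list. This domain was the longest region of distal 3L, and the only combined one above 10 kb. No list had a region in the first 50 kb: the earliest start in any list was that of the combined region.

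The replicates divided the same domain differently. In replicate 1 it was 3 regions, running from 51750 to 57181 (score 1.20), from 59554 to 61016 (score 0.84) and, after a wider gap, from 65601 to 70277 (score 1.01). In replicate 2 it was 1 region from 51367 to 74820 with a score of 1.01. In replicate 3 it was 4 regions, from 51145 to 60354 (score 1.26), from 60894 to 64192 (score 0.56), from 65284 to 70330 (score 0.78) and, right after it, from 70442 to 74077 (score 0.67). The left-hand piece thus had the highest score of the domain in replicates 1 and 3, and it ranked 4 by score among the distal 3L regions of each. Replicate 2's single region ranked 6 of 180.

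The pieces of replicate 1 covered 47.9% of the combined region, that of replicate 2 covered 97.2% and those of replicate 3 covered 87.8%. Replicates 1 and 3 both had no region between 64192 and 65284, and the largest gap was 4584 bp in replicate 1 and 1091 bp in replicate 3. Sequence held by all 3 lists added up to 11.0 kb in 4 pieces, of which those from 51750 to 57181 and from 65601 to 70277 were the longest. The left edge differed by at most 605 bp between replicates and the right edge by up to 4543 bp. The stretch beyond 70330 was in the lists of replicates 2 and 3 and not in that of replicate 1.

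**Figure D1:**
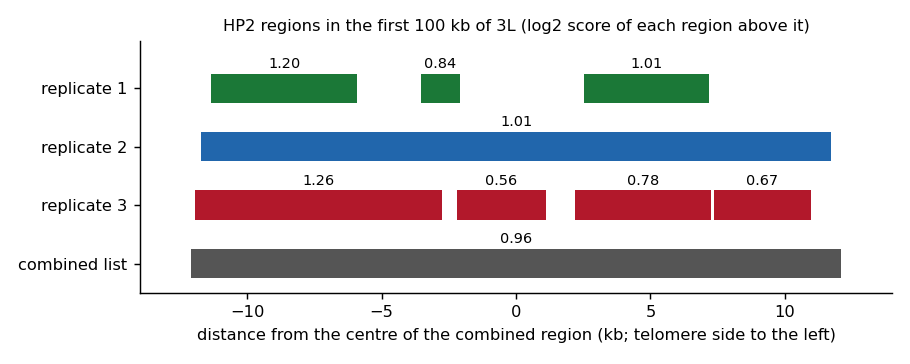
HP2 regions in the first 100 kb of 3L in the lists of replicates 1, 2 and 3 and in the combined list, as distance in kb from the centre of the combined region, with the log2 score of each region above it. The same stretch is 3, 1 and 4 regions in the replicate lists and 1 region in the combined list, and replicate 1 ends before the others.

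The first 100 kb was covered over 11.6%, 23.5% and 21.2% in replicates 1, 2 and 3, against 0.636%, 1.44% and 1.73% for the rest of distal 3L. The means were 18.7% ± 6.31 for the first 100 kb and 1.27% ± 0.57 for the rest (SD, n = 3 each). The first 100 kb was thus 18.2, 16.3 and 12.3 times as densely covered (mean 15.6 ± 3.02, SD, n = 3), and the values do not overlap. A two-sided exact sign-flip permutation test over 3 replicates gave p = 0.25, the smallest it allows. The whole excess is that 1 domain: with the first 50 kb in place of 100 kb the ratio is 0.

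The outer 100 kb of the other arms held less. In replicates 1, 2 and 3, X was covered over 1.61%, 13.5% and 5.59% there, 3R over 1.39%, 3.47% and 3.27%, 2L over 1.96%, 0% and 3.53%, and 2R over 0%, 1.73% and 1.52%. The outer 100 kb of 3L was the most covered of the 5 in each replicate. The longest region in this interval on another arm was 5484 bp, on X in replicate 2, against 23454 bp on 3L in the same list. The combined list had 19.5% on X, with a longest region of 11965 bp, against 24.1% on 3L, so the lead of 3L over X was smaller there.

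Past the domain, the next site inward was also held by all lists. It ran from 127460 to 129996 in the combined list, 52301 bp past the end of the domain, with scores of 1.03, 0.91 and 0.99 in replicates 1, 2 and 3. Its edges differed by at most 155 bp at the left and 232 bp at the right between the replicate lists.

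Over the whole of distal 3L, HP2 regions covered 0.685%, 1.54% and 1.81% of the bases in replicates 1, 2 and 3 (mean 1.35% ± 0.59, SD, n = 3). Distal 2L, 2R, 3R and X together were covered over 0.829%, 2.00% and 2.17%. Distal 3L was thus covered 0.826, 0.769 and 0.836 times as densely as those arms, a mean of 0.811 ± 0.036 (SD, n = 3; exact sign-flip permutation test, two-sided, p = 0.25, the smallest possible). In each replicate distal 3L came after 2L, 2R and X and before 3R, which it exceeded by a factor of 1.12, 1.08 and 1.09. The SD of single arms between replicates ran from 0.554 to 1.04 percentage points, with replicate 1 lowest on every arm, so the order shows only within a list. The ratio turns to 1.43 when the limit is set 1 Mb from the centromere side, and the added Mb of 3L is described below with the limit.

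**Figure D2:**
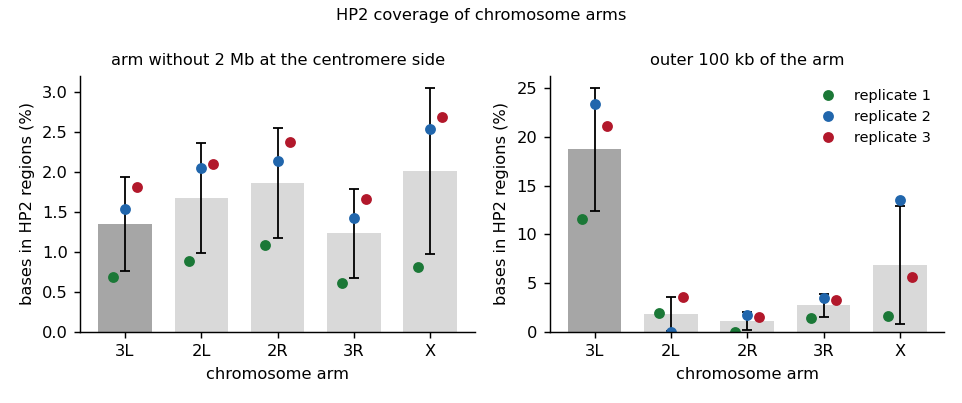
Percent of bases in HP2 regions for 3L and the 4 other long arms, for the arm without its 2 Mb at the centromere side (left) and for its outer 100 kb (right). Bars are means over 3 replicates with SD and points are replicates; 3L is low among the arms on the left, and on the right its replicates lie at 11.6% to 23.5%.

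In 1 Mb steps, the first step led the arm in each replicate, with 2.26%, 5.33% and 5.38% of its bases covered, a mean of 4.32% ± 1.79 (SD, n = 3). The telomere-side domain accounts for a part of this. Without its first 100 kb the first Mb was covered over 1.22%, 3.31% and 3.63%, against 0.612%, 1.36% and 1.65% for all sequence beyond 1 Mb. This was 1.99, 2.43 and 2.20 times as dense, a mean of 2.21 ± 0.22 (SD, n = 3; exact sign-flip permutation test, two-sided, p = 0.25, the smallest possible). Between 100 kb and 1 Mb there were 6, 15 and 17 regions in the replicate lists and 35 in the combined list.

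The other 22 steps had means between 0.310% and 2.02%. The step from 20 to 21 Mb followed with 2.02% ± 0.91, and that from 19 to 20 Mb with 1.87% ± 0.83 (SD, n = 3 each). The step from 10 to 11 Mb was the emptiest on average, with 0.146%, 0.412% and 0.372% in replicates 1, 2 and 3. Neighbours in this order from rank 2 to rank 22 differed in mean by less than the SD of either step. These SDs include the difference in coverage between whole lists, so they do not tell whether steps differ within each list. The emptiest step, in rank 23, lay 0.360 percentage points below the step from 12 to 13 Mb in rank 22, which is more than its own SD of 0.143 and less than the SD of 0.463 of the other step. The last 0.5 Mb before the limit was covered over 0.387%, 1.02% and 1.86%, below distal 3L as a whole in replicates 1 and 2 and next to it in replicate 3.

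**Figure D3:**
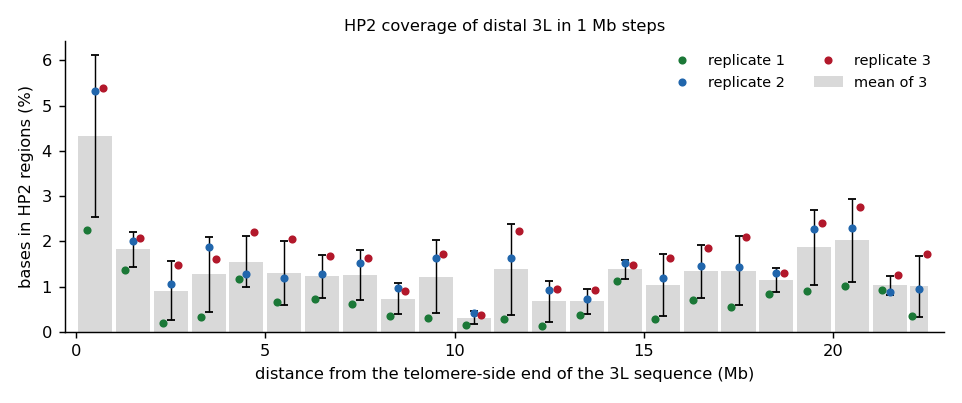
Percent of bases in HP2 regions along distal 3L in 1 Mb steps (the last one ends at 22.54 Mb), against distance in Mb from the telomere-side end. Bars are means over 3 replicates with SD and points are replicates; the first step is the highest in each replicate.

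Just outside the limit, the first 0.5 Mb was covered over 3.82%, 10.4% and 11.1% in replicates 1, 2 and 3, and the next 0.5 Mb over 59.9%, 82.0% and 80.2%. The last 3 combined regions inside the limit spanned 22266810 to 22267978, 22400104 to 22401398 and 22412190 to 22413388, and scored 0.52, 0.40 and 0.42. The first 3 outside spanned 22635302 to 22636696, 22714174 to 22715542 and 22717364 to 22718504, and scored 0.38, 0.41 and 0.44. The 3 regions on each side of the limit were thus shorter than the median of combined distal 3L regions (1543 bp). They scored below the median of the whole combined list (0.56), though the first (0.52) lay above the upper quartile of combined distal 3L regions (0.50). The dense block of the arm begins farther toward the centromere. The word euchromatic rests on this position alone, since no chromatin mark was measured.

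Away from the telomere side, HP2 on distal 3L was a set of short, separate sites. Median lengths were 1646, 1813 and 1862 bp in replicates 1, 2 and 3, and no region of this stretch exceeded 4 kb in any replicate list. The shortest region anywhere in each replicate list was 1301 bp, and 1001 bp in the combined list. Whether the region calling set these limits is not given, so shorter sites may be missing. Between 23.0% and 31.7% of distal 3L regions in the replicate lists were 1900 to 2100 bp long. Gaps between neighbouring regions beyond the first 100 kb had medians of 169.7 kb in replicate 1, 77.5 kb in replicate 2 and 70.3 kb in replicate 3, and the widest gap, 1123 kb, lay between 7429249 and 8552315 in replicate 1. In the combined list, which holds more regions, the median gap was 28.1 kb.

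Beyond the first 100 kb, sites with a neighbour within 5 kb were a minority, at 4.76%, 15.1% and 16.9% in replicates 1, 2 and 3, or 4 of 84, 27 of 179 and 35 of 207 regions. The other distal arms were counted in the same way, without their outer 100 kb. This share was 14.7%, 37.1% and 28.1% on 2L, 22.9%, 23.3% and 22.5% on 2R, 11.5%, 18.4% and 13.9% on 3R, and 10.9%, 23.9% and 21.5% on X. Distal 3L was thus the lowest of the 5 arms in replicates 1 and 2, and in replicate 3 it lay above 3R and below the others. In the combined list the share was higher, at 31.4% on 3L (138 of 440), again above 3R (29.8%) and below the others. These shares were not corrected for the number of regions per Mb, which differed between arms and lists.

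Distal 3L regions had low scores relative to their lists. Their medians were 0.91, 0.46 and 0.59 in replicates 1, 2 and 3, against 0.99, 0.70 and 0.78 for the whole list. Of the distal 3L regions, 39.1% in replicate 1, 11.7% in replicate 2 and 13.7% in replicate 3 had a score at or above the median of the whole list. No such share is given for the other distal arms. The difference of the medians, distal 3L minus distal X, was -0.08, -0.10 and -0.10 in these lists. Against distal 3R it was 0.016, -0.00096 and 0.0040, so neither arm led in all lists. The difference was 0.016, -0.030 and -0.014 against distal 2L, and -0.0038, -0.045 and -0.012 against distal 2R.

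The 441 combined regions were next sorted by the replicate lists that hold them, where held means an overlap of at least 1 bp. All 3 lists held 49 of them, or 11.1% (95% exact binomial interval 8.33% to 14.4%, for counting over regions only), against 21.0% of the whole combined list and 11.4% on distal 2L, 2R, 3R and X. The other arms alone gave 14.4% on 2L, 10.9% on 2R, 9.67% on 3R and 11.3% on X, so the share on 3L is close to the background of such arms. A further 83 were in 2 lists and 109 in 1 list. No replicate list held 200 of them, or 45.4%, against 33.5% of the whole combined list and 44.0% on the other distal arms. The replicates also went into the combined list, so these shares describe the lists and test nothing.

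Regions held by all 3 lists were long for this arm: their median length was 2169 bp, and that of regions in none was 1213 bp. In the combined list they scored 0.57 in the median and regions in none 0.44, but the score did not climb step by step: regions in 1 or 2 lists both had a median of 0.39. Without replicate 1 the lead of regions in both remaining lists over those in neither was 0.01. Of the 200 regions in no replicate list, 128 were shorter than 1301 bp and so under the shortest length in the replicate lists. Among the 282 combined regions of at least 1301 bp, 49 were in all 3 lists, or 17.4%. Without replicate 1, 125 of 441 were in both remaining lists, or 28.3%.

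The 49 sites were spread over 21 of the 23 steps of 1 Mb, with 6 in the first step, 5 from 4 to 5 Mb and none from 9 to 11 Mb. Of them, 48 met a single region in each replicate list, and the telomere-side domain was the other one. With an overlap of at least 50% of both regions 45 were still in all 3 lists. The domain then counted for replicate 2 alone, because its pieces in replicates 1 and 3 are each too short.

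**Figure D4:**
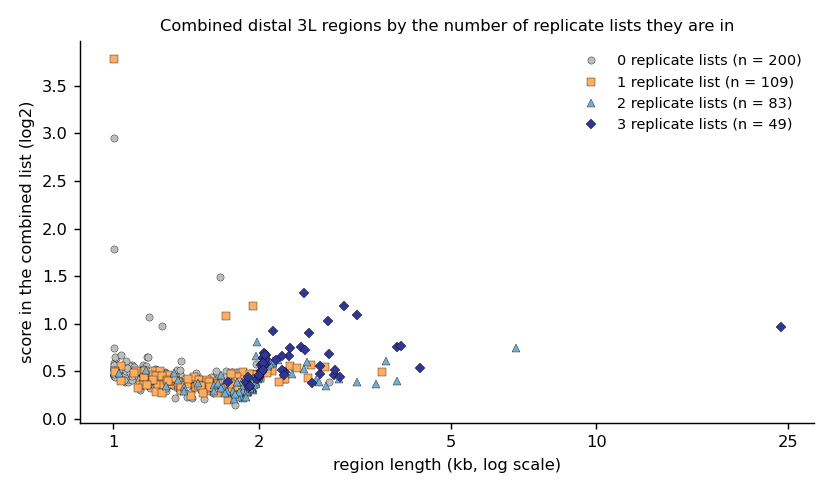
Combined distal 3L regions by length in kb (log scale) and log2 score, with colour and shape for the number of replicate lists that hold them (200 in 0 lists, 109 in 1, 83 in 2 and 49 in 3). Regions in 3 lists sit mostly above 2 kb, the telomere-side domain stands alone at the right, and the highest scores belong to regions of 1001 bp.

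Between replicates, 51 of the 87 distal 3L regions of replicate 1 were found in replicate 2, or 58.6%, against 78.5% of the whole replicate 1 list. In replicate 3, 57 of the 87 were found, or 65.5%, against 75.0%. Replicate 2 regions were found in replicate 1 in 27.2% of cases, against 42.4% of the whole list, and in replicate 3 in 70.0% of cases, against 73.0%. Replicate 3 regions were found in replicate 1 in 27.0% of cases, against 42.2%, and in replicate 2 in 61.1% of cases, against 78.6%. Each of the 6 shares on distal 3L thus lay below that of its whole list. The whole lists include the dense blocks at the centromere side, and no such shares are given for the other distal arms. These shares therefore do not show whether sharing is lower on 3L than on arms like it. For combined regions in all 3 lists, distal 3L had 11.1% and the other distal arms 11.4%. Of all bases covered by either list of a pair, replicates 2 and 3 shared a fraction of 0.473 (Jaccard index), replicates 1 and 3 shared 0.223, and replicates 1 and 2 shared 0.233.

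In replicates 2 and 3, regions found in both other lists scored above those found in neither, with medians of 0.56 against 0.45 in replicate 2 and 0.71 against 0.59 in replicate 3. In replicate 1 the order was the other way round: the 50 regions found in both other lists had a median of 0.84, and the 29 found in neither had 1.03. The shared regions of replicate 1 were the longer ones, with a median of 1898 bp against 1463 bp. In the medians of replicate 1, a higher score therefore did not go with presence in the other lists, whereas length did. The highest score of replicate 1, 1.52, was still at a site held by all 3 lists. Regions in neither other list made up 33.3%, 29.4% and 35.5% of replicates 1, 2 and 3. The combined list held 77.0%, 99.4% and 85.8% of the distal 3L regions of replicates 1, 2 and 3, against 87.7%, 99.9% and 92.0% of their whole lists. Here too, no share is given for the other distal arms.

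Across overlapping regions, Spearman's rho of the scores was 0.64 (Pearson's r 0.80) over 126 pairs for replicates 2 and 3. The 57 pairs of replicates 1 and 3 gave a rho of 0.38 (r 0.45), and the 51 pairs of replicates 1 and 2 gave 0.34 (r 0.55). The points of a pair of lists share their libraries and are regions, not replicates, so no p is given.

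The 20 strongest sites of the rest of the arm were those with the highest combined scores among regions held by all 3 lists. The first ran from 684262 to 686740 and had scores of 1.52, 1.34 and 1.38 in replicates 1, 2 and 3. It ranked 1 of 87, 2 of 180 and 3 of 211 among the distal 3L regions of these lists, and no other site was within the first 3 ranks of all lists. A weaker neighbour ended 743 bp before it in the combined list.

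The site from 6117240 to 6120248 scored 1.11, 1.32 and 1.71 in replicates 1, 2 and 3, ranking 12, 3 and 1. It was the strongest of replicate 3 and stood alone, with 47945 bp before it and 56943 bp after it free of combined regions. The site from 19991978 to 19995170 scored 1.11, 1.16 and 1.11, in ranks 13, 4 and 8. The site from 14401618 to 14404394 scored 1.30, 1.08 and 1.07, in ranks 2, 5 and 10, and lay 216917 bp from the region before it. Of the 20 sites, these 4 and the one from 14043352 to 14047282 (ranks 10, 16 and 13) were the ones within the first 20 ranks of all 3 lists.

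The site from 20180368 to 20182506 scored 0.68, 1.00 and 1.10 and ranked 78, 7 and 9, so it was high in replicates 2 and 3 and near the bottom of replicate 1. The site from 6971852 to 6974176 did the same, with ranks 80, 10 and 7. In the other direction, the site from 318812 to 322672 ranked 9 in replicate 1, 18 in replicate 2 and 56 in replicate 3. The site from 4975408 to 4977474 ranked 46, 31 and 186, the lowest rank of any of the 20 in replicate 3, and was one of the most isolated, with 347643 bp before it and 141081 bp after it.

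The other sites of this set ran from 127460 to 129996 (described above), from 2585506 to 2587952 (combined score 0.75), from 18857938 to 18860426 (0.72), from 4406012 to 4408062 (0.70), from 21871916 to 21874704 (0.69) and from 17885888 to 17887948 (0.67). The remaining ones ran from 16653550 to 16655780 (combined score 0.67), from 1567894 to 1570204 (0.66), from 615808 to 617844 (0.64), from 11672526 to 11674594 (0.63) and from 22093078 to 22095246 (0.62). All 20 met a single region in each replicate list and kept all 3 lists with an overlap of 50% of both regions. Their lengths ran from 2037 to 3931 bp, and 16 were between 2000 and 3000 bp. In replicate 2, all 20 scored above the median of distal 3L in that list (0.46), and in replicate 3 so did 19 (median 0.59). In replicate 1 only 9 did (median 0.91). The 20 were chosen by combined score and the replicates went into the combined list, so these counts describe the chosen sites and test nothing.

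**Figure D5:**
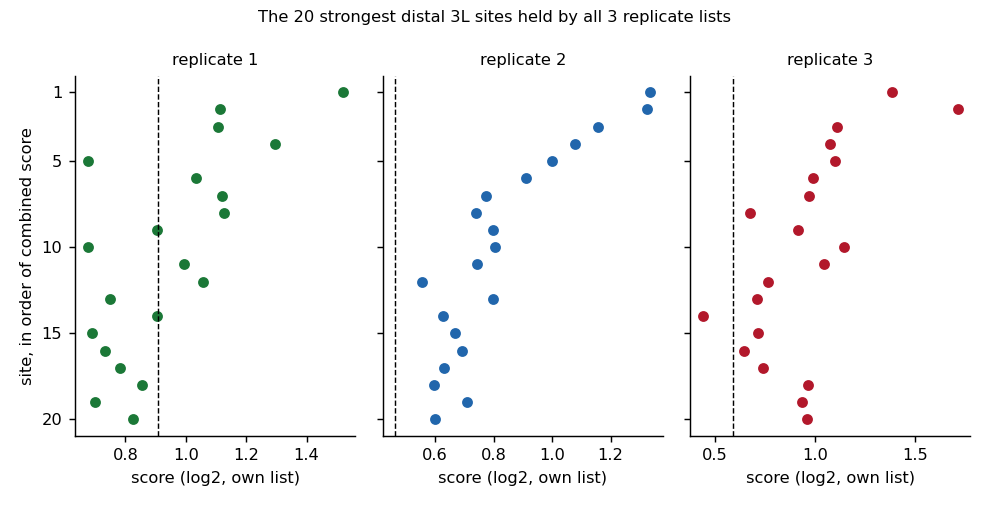
Log2 scores of the 20 strongest sites held by all 3 lists on distal 3L beyond its first 100 kb, in order of combined score from top to bottom. Scores are from the lists of replicates 1, 2 and 3, with the median of all distal 3L regions of that list as a dashed line. All 20 lie above the line in replicate 2, 19 in replicate 3 and 9 in replicate 1. The sites were chosen by combined score, to which the replicates contributed, so these counts test nothing.

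The longest combined region after the telomere-side domain ran from 20470694 to 20477496, over 6803 bp, with a score of 0.75. It was 2 regions in replicate 2, 1 region in replicate 3, and in replicate 1 it was not called. The region 3249 bp before it, from 20465446 to 20467444, was held by all 3 lists. The next in length ran from 1301880 to 1306190 over 4311 bp (3 lists), from 14043352 to 14047282 over 3931 bp (3 lists) and from 627004 to 630870 over 3867 bp (replicates 2 and 3).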

How the data were processed

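Enriched-region lists of 3 HP2 ChIP-seq libraries and 1 list of the replicate set were used; groups and replicate numbers come from the sample titles. Per the submitters' processing notes, Bowtie 0.12.7 was used, and per the file headers coordinates follow release 5. How regions were called, how reads that map to several places were treated and how replicates were pooled: not given in the sources used here. The authors deposited 1 score per region, made before deposit in a way the headers do not state, and it was taken here as log2 with an unknown constant per list. The reason is that 9 to 16 of 29 differences between common scores matched log2 of ratios of whole numbers up to 12 (tolerance 1e-06), and at most 1 matched in another base.

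The members were all regions with a midpoint up to the stated limit, and members and alternatives were chosen with earlier results of these data known. Region ends past a chromosome end were set to that end. Coverage is the percent of bases in regions; regions count as shared from 1 bp of overlap. Coverage ratios were tested over replicates by an exact sign-flip permutation test, and no test was made over regions. Named regions were the one in the first 100 kb, the 20 strongest others held by all 3 lists, the 5 longest, and the 3 on each side of the limit; a few others were named after their values were seen. Genes were not run, because the gene table follows release 6. Overlap code was tested on simulated lists. Tools were matplotlib 3.10.9, scipy 1.17.1, pandas 2.3.3, numpy 2.4.6 and Python 3.11.15. Read depth is unknown, so single regions carry no error. With 3 replicate ratios on the same side of 1, the sign-flip p is 0.25 whatever their spread. It therefore shows only that these libraries share a direction, and their spread may be technical.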

Additional observations from a re-analysis of the deposited data

How the results depend on the processing

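Of 55 alternatives for 8 results, 36 stayed within the spread: the SD between replicates for ratios, the SD over pairs for sharing and rho, the binomial interval for the share in all lists, the interquartile range for the score lead, and 1.5 times for the number of regions. Leaving out 1 of 3 replicates cannot move a mean ratio by more than the SD between replicates, so those alternatives had to stay within it. For the first 100 kb and first 1 Mb ratios, no other alternative did (3 of 8 and 3 of 6 in all). The interquartile range is that of scores across regions, and it is so wide that a score lead of 0.01 still counted as within it. Coverage of distal 3L relative to the other distal arms (0.811) was 0.706 with regions at or above the median score of each list (the upper part), 0.878 with a limit at 3 Mb, 0.855 against 2L, 2R and 3R alone and 0.764 without the outer 100 kb of each arm. It turned to 1.43 with a limit at 1 Mb, and ranged from 0.798 to 0.831 when 1 replicate was left out. The ratio for the first 100 kb (15.6) was 59.2 in the upper part, 7.51 in the combined list, 4.54 in regions per Mb, 9.08 with 200 kb and 0 with 50 kb, where no region lies. It ranged from 14.3 to 17.2 with 1 replicate left out. The ratio for the first 1 Mb (3.62) was 2.21 without the first 100 kb, 10.3 in the upper part and 2.88 in the combined list, and 3.48 to 3.80 with 1 replicate left out. On average 159.3 regions lay on distal 3L, and 28 in the upper part, and 133.5 to 195.5 with 1 replicate left out. The share in all lists (11.1%) was 42.6% in the upper part, 16.7% with a limit at 1 Mb and 17.4% among regions of at least 1301 bp. With 1 replicate left out it ranged from 11.3% to 28.3%, where fewer lists have to hold a region.

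The mean share over the 6 directions (51.6%) ranged from 42.9% to 65.6%, and mean rho (0.45) from 0.34 to 0.64, with 1 replicate left out; the highest values are those without replicate 1. The score lead of regions in all lists over those in none (0.13) ranged from 0.01 without replicate 1 to 0.14 without replicate 3. The first-1-Mb ratios, the outer 100 kb and the minimum of 1301 bp were chosen after seeing the data, and apart from the reasons given the cause was not tested. Of 30 named regions, 27 kept their number of lists with a 50% overlap and 12 with the upper part of each list. No paired analysis was possible because the inputs, which share the replicate numbers, have no list of their own here. Depth limits all values in an unknown degree.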

Other observations

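The highest scores of distal 3L belonged both to regions held by all replicate lists and to regions held by few. Of the 10 highest scores in the combined list, 3 were of sites in all 3 replicate lists, 3 of sites in 1 list and 4 of sites in none. Of all 441 regions, 49 were in all 3, 109 in 1 and 200 in none. The share in none, 40%, was thus near the 45.4% of all 441, and the share in all 3, 30%, was above the 11.1% of all 441. These 10 were picked out after their values were seen, and the replicates went into the combined list, so these shares test nothing. The first, from 5457964 to 5458964, was 1001 bp long with a score of 3.78; replicate 1 alone held a region there, in rank 63 of 87. The second, from 2068662 to 2069662, and the third, from 20324438 to 20325438, were 1001 bp long as well, scored 2.95 and 1.78, and were in no replicate list. Relative to the commonest score of the combined list, these 3 scores were higher by 3.00, 2.17 and 1.00, which are the log2 values of 8-to-1, 9-to-2 and 2-to-1. Over all 441 combined regions, 16 (3.63%) had scores at such ratios, among them 10 of the 200 regions in no replicate list (5.00%) and 0 of the 49 in all 3. The replicate lists did not all share this order: of the regions found in both other replicate lists and of those found in neither, 7 of 50 and 3 of 29 had such scores in replicate 1, 1 of 48 and 1 of 53 in replicate 2, and 0 of 50 and 1 of 75 in replicate 3. The fourth, from 11608300 to 11609964 with a score of 1.49, was in no replicate list either. The region from 9436464 to 9438408, with a combined score of 1.19, was the strongest of distal 3L in replicate 2 (score 1.45) and was in neither other replicate list.

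Score and length were not related in 1 direction. Median scores were 0.46 for the 159 combined regions of 1001 to 1300 bp, 0.38 for 72 regions of 1301 to 1600 bp, 0.34 for 83 regions of 1601 to 1900 bp, 0.47 for 80 regions of 1901 to 2200 bp and 0.53 for the 47 longer ones. The share held by all 3 lists was 0% in both shortest classes, 3.61% in the next, 27.5% from 1901 to 2200 bp and 51.1% above. Presence in all 3 lists also went with score: in 4 classes of 110 or 111 regions, from the highest combined scores to the lowest, it was 29.1%, 10.0%, 3.64% and 1.80%. Presence in no list did not run in 1 direction, at 40.9%, 61.8%, 47.3% and 31.5% of the same classes. At or above the median score of the whole combined list, 26 of 61 regions (42.6%) were in all 3 lists, and below it 23 of 380 (6.05%). The replicates also went into the combined list, so the shares by length and by score describe the lists and test nothing. All regions of the shortest class were below 1301 bp, the shortest length in the replicate lists. The part of the region caller in these shares was not tested.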
